A study of Mus musculus with 3 samples.

Results

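Pro-B and pre-B cells are the marrow precursors of B lymphocytes, and 97 of the 12790 cells kept in this series met the rule for them. A cell was counted if it held at least 2 UMIs (unique molecular identifiers, 1 per captured transcript) of Cd79a and at least 2 UMIs of Vpreb1 and Igll1 together. It also had to hold fewer than 20 UMIs of Jchain, a plasma cell gene, no UMI of Cdh5, an endothelial gene, and at most 5 UMIs of Cxcl12, a stromal gene. The WT library held 67 of these cells, the FLOX library 25 and the VC library 5. They were compared with 216 B barcodes, cells under the same limits with at least 2 Cd79a UMIs, at least 1 UMI of Ms4a1 (CD20) and none of Vpreb1 or Igll1. The values of Cd79a, Vpreb1, Igll1, Jchain, Cdh5, Cxcl12 and Ms4a1 are what the cells were selected on and are given only as description, as is every contrast of the precursors with the B barcodes.

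The study asked what deletion of Vegfc, a lymphatic and vascular growth factor gene, does to the marrow vascular niche, and it has 1 single-cell library per genotype. WT came from wild-type mice, FLOX from Vegfc flox/flox mice and VC from Cdh5CreERT2;Vegfc flox/flox mice, in which the promoter of VE-cadherin (Cdh5) drives a tamoxifen-activated Cre recombinase. All mice were of strain C57Bl/6JCrl and all received tamoxifen by gavage, so no library lacks that drug, and no library carries the Cre without the floxed allele. Tibial marrow was digested, depleted of red cells and stained for endothelial and LepR-positive stromal cells, which were the cells sought. B lineage cells were not the target of the sort. The sources used here do not give the gates, the mixing of sorted cells or the number, age and sex of the mice.

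In the marrow, a pro-B cell rearranges its immunoglobulin heavy chain gene with the recombinases Rag1 and Rag2, while terminal transferase (Dntt) adds bases at the joints. A heavy chain that pairs with the surrogate light chain, made of Vpreb1 or Vpreb2 with Igll1, forms the pre-B cell receptor with Cd79a and Cd79b. Signals from this receptor and from the interleukin 7 receptor drive large pre-B cells to divide, after which small pre-B cells rearrange a light chain gene and become immature B cells.

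The surrogate light chain genes lie on mouse chromosome 16, and stretches upstream of their RefSeq starts are shown because the rule rests on Vpreb1 and Igll1. Vpreb2, which the rule did not use, is shown beside them. Vpreb1 lies at chr16:16868403-16870843 on the minus strand, Igll1 at chr16:16860671-16863985 on the minus strand and Vpreb2 at chr16:17980428-17981273 on the plus strand (GRCm38, GENCODE gene models). The sequences were taken from the RefSeq promoter table of GRCm38.p6 and read 5′ to 3′ on the strand of the gene. Capitals mark CAGGTG on either strand, an E-box that E2A proteins bind, and CCCNNGGG, the core recognised by EBF1. E2A and EBF1 are transcription factors of early B cell development. The Vpreb1 stretch (chr16:16869256-16869368) lies before the RefSeq start but within the GENCODE gene model, which starts further upstream. It overlaps an exon of a non-coding processed transcript annotated at the locus. The Vpreb2 stretch is chr16:17980315-17980427, which ends at the GENCODE gene start and does not reach the RefSeq start further downstream. The Igll1 stretch is chr16:16863986-16864235.
Vpreb1: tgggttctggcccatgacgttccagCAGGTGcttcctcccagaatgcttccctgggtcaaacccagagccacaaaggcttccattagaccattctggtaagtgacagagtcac
Vpreb2: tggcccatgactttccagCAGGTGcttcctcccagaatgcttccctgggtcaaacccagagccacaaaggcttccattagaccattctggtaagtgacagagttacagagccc
Igll1: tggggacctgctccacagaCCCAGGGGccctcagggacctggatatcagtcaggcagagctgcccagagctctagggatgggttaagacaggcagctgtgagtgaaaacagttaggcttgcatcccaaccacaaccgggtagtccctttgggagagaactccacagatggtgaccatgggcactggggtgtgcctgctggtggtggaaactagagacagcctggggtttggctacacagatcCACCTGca
Each stretch held 1 CAGGTG, and the Igll1 stretch also held 1 CCCNNGGG. Of 32851 RefSeq promoters, 17.2% held CAGGTG and 11.8% CCCNNGGG within 250 bases before the start, the length of the Igll1 stretch. Over 113 bases, the length of the other stretches, the shares were 7.99% for CAGGTG and 5.99% for CCCNNGGG. These were the bases directly before the RefSeq start, where the Vpreb1 stretch lies but the Vpreb2 stretch does not. A match is only a run of letters. The Vpreb1 and Vpreb2 stretches were identical at 105 of 106 aligned bases, or 99.1%, and the transcripts at 740 of 759, or 97.5%. The division of reads between Vpreb1 and Vpreb2 is therefore uncertain.

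The label was checked against further markers, most of them not used by the rule. The endothelial list holds Cdh5, which also chose the endothelial barcodes, and the stromal list holds Cxcl12. Those sums are thus partly fixed by the rule. Of the 5 markers given for the cells, Il7r, the receptor chain for interleukin 7, had a UMI in 63 of the 67 WT cells, in 22 of the 25 in FLOX and in 3 of the 5 in VC. Pax5, the factor that fixes B cell identity, had a UMI in 63, 22 and 5 cells. Myl4, a myosin light chain gene, had a UMI in only 30, 14 and 2. Ebf1 had a UMI in all 97 cells. In the B barcodes of WT, FLOX and VC, Ebf1 had a UMI in 77 of 77, 73 of 76 and 62 of 63 cells. Pax5 had one in 72, 63 and 54 of these, Il7r in 27, 9 and 14 and Myl4 in 46, 17 and 20. In WT, Myl4 was thus found in a larger share of B barcodes (59.7%) than of precursors (44.8%). The 12 endothelial markers together came to 1.01% of their level in endothelial barcodes (Cdh5 of at least 2 UMIs and no Cd79a) in WT, 1.17% in FLOX and 0.808% in VC. Ms4a1 had 2 UMIs in the WT cells, 5 in the FLOX cells and 0 in the VC cells. The name therefore rests on the surrogate light chain transcripts that the rule asked for. Il7r was found in a larger share of precursors than of B barcodes in every library, while Pax5 and Ebf1 were found in most cells of both. The rule may not take in all precursors. A further 163 WT, 50 FLOX and 26 VC cells had Cd79a of at least 2 UMIs and none of Vpreb1, Igll1 or Ms4a1, and 71.2%, 62.0% and 73.1% of them had a Rag1 or Rag2 UMI. Levels here are CPM, the UMIs of a gene summed over the cells of 1 library and scaled to a total of 1000000, and values given in threes are in the order WT, FLOX, VC. In those cells Rag1 was at 402, 394 and 451 CPM and Il7r at 744, 730 and 765 CPM, while Dntt was at 2.00 CPM, 0 and 0. Igkc, the kappa light chain, was at 33772, 9632 and 3512 CPM in them, against 296, 877 and 330 CPM in the precursors. Whether they also hold later B cells was not tested. In the precursors 10 stromal markers summed to 19.6, 75.3 and 57.4 CPM with Adipoq at 0, 8 monocyte markers to 26.1, 22.1 and 28.7 CPM and 8 erythroid markers to 275, 119.6 and 86.0 CPM. Not all lists were low. The 8 plasma cell markers summed to 647, 669 and 746 CPM (536, 1036 and 726 in B barcodes). The 8 markers of plasmacytoid dendritic cells summed to 453, 465 and 401.5 CPM (3416, 4113 and 5050). The 9 progenitor markers summed to 349, 213 and 129 CPM (44.2, 74.0 and 41.6). At the edge of the rule, 14 WT, 4 FLOX and 1 VC cells had 1 Vpreb1 or Igll1 UMI and stayed out, while 9, 6 and 1 cells with 2 to 4 such UMIs were in.

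The 3 libraries total 37361779 to 61758462 UMIs, of which the precursors hold 1072967, 225824 and 69733. The median precursor had 10521, 5436 and 7406 UMIs, with 2.46% to 2.82% mitochondrial UMIs. The median B barcode had 4375, 3094 and 3758 UMIs. A gene with 0 UMIs in the precursors may be present at up to 2.80, 13.3 and 43.0 CPM in the 3 libraries, the level of 3 counts, and such genes were set to that floor for fold changes. Libraries shared 5 to 10 barcode sequences by pair, of which 1, shared by WT and FLOX, was a precursor in 1 of the 2 libraries and none was a precursor in both. The doublet caller Scrublet called none of the 97 cells. It called only 0.232% of all WT, 1.62% of all FLOX and 0.329% of all VC cells, where a rate of 6% was set. Little is therefore read from its calls. In the top 5% of doublet scores lay 1 WT and 2 FLOX precursors. Vegfc itself, the targeted gene, had 1 UMI in the WT precursors and none in FLOX or VC. In endothelial barcodes Vegfc stood at 3.14, 5.78 and 1.09 CPM. The sources used here do not say whether these tags fall in the deleted part. Intervals below are 95%, exact Poisson for levels and Clopper-Pearson for shares, and cover counting error only. With 1 library per genotype, no test between genotypes was possible, and no p-value is given.

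The precursors made up 1.55% of WT cells (67 of 4318, interval 1.20% to 1.97%). In FLOX they made up 0.436% (25 of 5734, 0.282% to 0.643%). In VC they made up 0.183% (5 of 2738, 0.0593% to 0.426%). The WT interval lay above both others, so the control libraries themselves differed by more than counting error, and the intervals of FLOX and VC overlapped. The B barcodes did not follow this order, at 1.78%, 1.33% and 2.30%. Among precursors and B barcodes together, the precursors were 46.5% (38.2% to 55.0%), 24.8% (16.7% to 34.3%) and 7.35% (2.43% to 16.3%). These 3 intervals did not overlap. With B barcodes taken without the limits on Jchain, Cdh5 and Cxcl12 the shares were 40.9%, 10.8% (7.13% to 15.6%) and 4.07% (1.33% to 9.23%), and the intervals of FLOX and VC overlapped. The order was also WT, FLOX, VC after each cell had been thinned to 2000 UMIs, with 46.0%, 22.6% and 6.45% of precursors and B barcodes, and here the intervals of FLOX (14.6% to 32.4%) and VC (1.79% to 15.7%) overlapped. The cells outside the rule with Cd79a and none of Vpreb1, Igll1 or Ms4a1 were 3.77%, 0.872% and 0.95% of the libraries' cells. WT was again highest, and FLOX and VC lay within each other's intervals (0.648% to 1.15% and 0.621% to 1.39%). The sort can set all these shares, and a change in marrow precursors and a change in what the sort let through cannot be told apart.

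**Figure D1:**
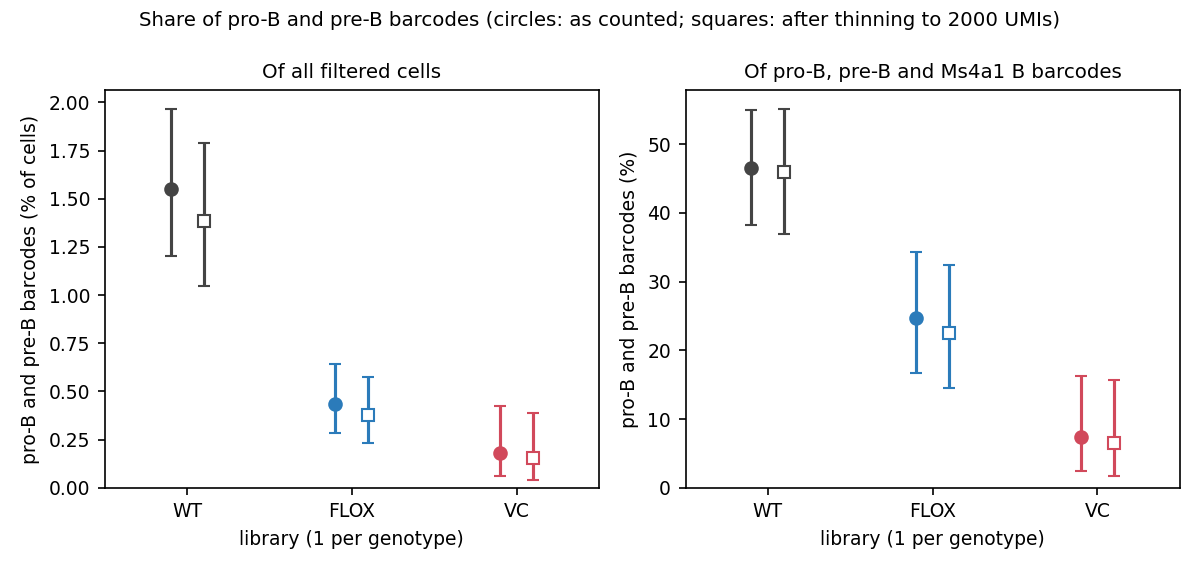
Precursors as a percentage of all kept cells (left) and of precursors plus B barcodes (right) in each library, as counted (circles) and after thinning to 2000 UMIs (squares), with exact 95% intervals of counting error. The share of all cells was 1.55% in WT against 0.436% in FLOX and 0.183% in VC, and the squares keep this order.

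The cells of each library can be read one by one. Vpreb1 ran from 0 to 62 UMIs per cell in WT (median 19), from 1 to 26 in FLOX (median 10) and was 29, 0, 37, 18 and 28 in the 5 VC cells, taken from the deepest to the shallowest. Igll1 ran from 0 to 42 in WT (median 11), from 0 to 15 in FLOX (median 5) and was 19, 2, 13, 21 and 2 in the VC cells. The libraries overlapped in both genes. Summed, Vpreb1 stood at 1273, 1271 and 1606 CPM, and Igll1 at 746, 726 and 817 CPM. The VC interval for Vpreb1 (1322 to 1933) overlapped those of WT (1206 to 1342) and FLOX (1128 to 1427). Vpreb2 was lower, at 111, 186 and 215 CPM. The heavy chain gene Ighm was detected in every precursor, at 1658, 2174 and 1592 CPM.

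Dntt and Myl4 marked different precursors. A split chosen after the values were seen set 44 cells with Dntt and no Myl4 UMI (32 WT, 9 FLOX and 3 VC, here Dntt cells) against 38 with Myl4 and no Dntt UMI (24, 12 and 2, here Myl4 cells). Only 8 cells held both and 7 held neither. In VC the 3 shallower cells had 14, 5 and 9 Dntt UMIs and no Myl4, and the 2 deeper ones had 17 and 7 Myl4 UMIs and no Dntt. Of the 8 cells with both, 6 in WT and 2 in FLOX, all were dividing by the measure used below. Depth differed between the sets: the median Dntt cell had 5962, 4821 and 4054 UMIs and the median Myl4 cell 21740, 6037 and 27806. After thinning every cell to 2000 UMIs, 32 WT, 7 FLOX and 3 VC cells had Dntt alone, 16, 9 and 2 had Myl4 alone, 1, 1 and 0 had both and 17, 8 and 0 neither. B barcodes had no Dntt UMI in any library, and Myl4 in them was at 370.3, 123 and 148 CPM.

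**Figure D2:**
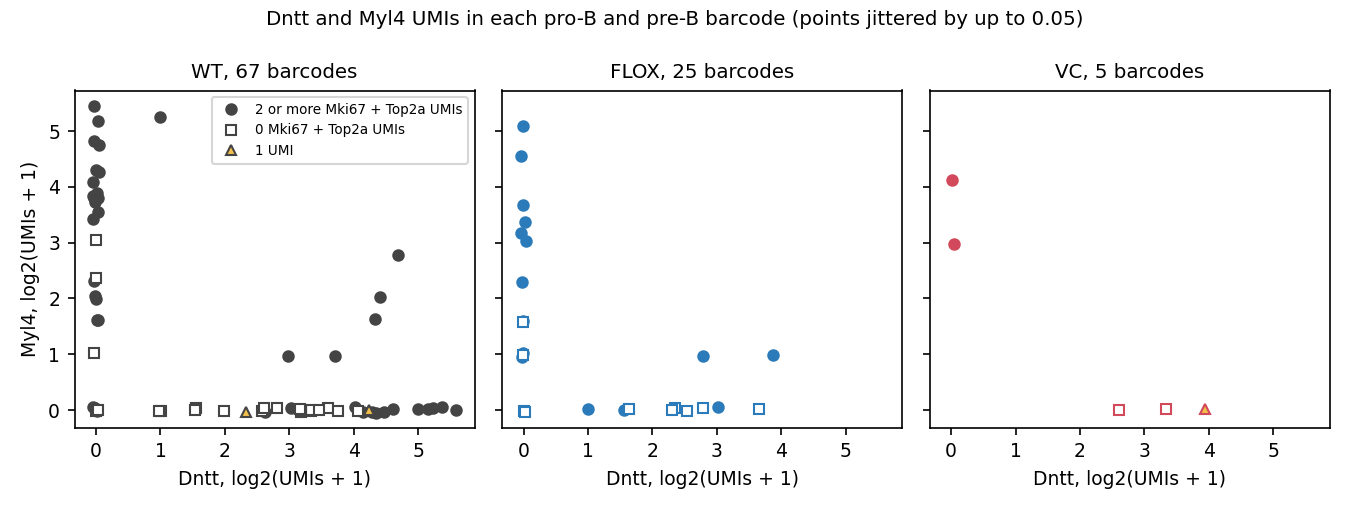
Myl4 against Dntt in each precursor, as log2(UMIs + 1), 1 panel per library, with filled circles for cells with 2 or more UMIs of Mki67 and Top2a, open squares for cells with none and triangles for cells with 1. Most cells lie on 1 of the axes: 44 of 97 held Dntt alone, 38 Myl4 alone and 8 both.

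The Dntt cells carried more of Rag1 and Rag2 than the Myl4 cells, in every library. Vpreb1 and Igll1 were also higher in them, but the rule chose the cells on these genes, so their levels are description only. The rule's fixed UMI thresholds ask a higher level of shallower cells, as the Dntt cells were. Vpreb1 was at 2897, 2762 and 5877 CPM in the Dntt cells and at 567, 647 and 521.5 CPM in the Myl4 cells. Igll1 was at 1452, 1591 and 2549 CPM against 450.5, 384 and 378 CPM. Rag1 was at 574, 749.9 and 496 CPM against 15.2, 42.7 and 18.0 CPM, and in the Myl4 cells it was found in 3 of 24, 2 of 12 and 1 of 2. Rag2, the partner recombinase, was at 168.5, 329 and 142 CPM against 8.44, 42.7 and 54.0 CPM, and the VC values rest on 2 and 3 UMIs. Ebf1 was at 3855, 3603 and 5877 CPM against 1422, 1464 and 719 CPM. Lef1, a transcription factor of early lymphoid cells, was at 929, 1006 and 2195 CPM against 278, 270.1 and 269.7 CPM. Erg, another factor of early progenitors, was found in 24 of 32 WT and 7 of 9 FLOX Dntt cells but in none of 24 and 1 of 12 Myl4 cells. No VC cell held an Erg UMI. The level of 3 counts there is 43.0 CPM over the 5 cells but 212 CPM over the 3 Dntt cells, so the absence is not read. Arpp21, a gene known in T and B precursors, was at 398, 384 and 991 CPM in the Dntt cells against 5.06 and 14.2 CPM and 0 in the Myl4 cells.

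Other genes were higher in the Myl4 cells. Cd24a, a surface antigen of B precursors, was at 1549, 1308 and 989 CPM in the Myl4 cells against 380.1, 348 and 283 CPM in the Dntt cells. Nrgn, a calmodulin-binding protein, was at 366, 249 and 288 CPM in the Myl4 cells against 3.59 CPM, 0 and 0, and its 16 VC UMIs came from 1 cell. Ikzf3 (Aiolos), a factor of later B precursors, was found in 23 of 24 and 6 of 12 Myl4 cells of WT and FLOX but in 3 of 32 and 0 of 9 Dntt cells. Hspd1, a mitochondrial chaperone, was at 935, 554.5 and 1349 CPM against 305 CPM, 201 CPM and 0, and 98.7% of its VC UMIs came from 1 cell. Il7r and Ighm did not separate the sets in this way. Il7r was at 524, 530.4 and 354 CPM in the Dntt cells against 359, 412 and 179.8 CPM, and Ighm was higher in the Dntt cells only in VC, at 2478 against 1367 CPM.

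Across all genes, 320 of 3202 (9.99%) were at least 1.5-fold higher in the Dntt cells in all 3 libraries and 105 (3.28%) were lower. Only genes averaging 50 CPM or more, with 50 or more UMIs in all, were read in such counts. Beside Dntt, Arpp21, Rag1 and Vpreb2, the 12 with the largest smallest fold on the higher side were Gimap6, Maf, Tmem91, Pde4b, Adgrg1, Cplx2, Sgk1 and Phldb3. Maf is a leucine zipper transcription factor, at 147 CPM in WT Dntt cells against 5.06 CPM in Myl4 cells and at 274 against 28.4 CPM in FLOX. On the lower side stood Cd24a, Ldha, Hspe1, Hspd1, Arhgap17, Ddx21, Ybx3, Mif, Nme1, C1qbp, Eftud2 and Nop58, among them genes of glycolysis (Ldha), chaperones (Hspe1, Hspd1) and ribosome assembly (Ddx21, Nop58). Among listed genes averaging 10 CPM or more, 6 of 13 pre-B receptor genes were higher (Vpreb1, Vpreb2, Vpreb3, Igll1, Cd79a and Blnk) and none lower, with median log2 folds of 0.90, 0.71 and 2.22. Of these, Vpreb1, Igll1 and Cd79a were used by the rule and are description only. Its fixed UMI thresholds ask a higher level of shallower cells, as the Dntt cells were. The median over all genes was 0.17, 0.36 and 0.39. Of 12 genes of V(D)J recombination Dntt was higher by the choice of the cells, and of the other 11, 3 were higher (Rag1, Rag2 and Xrcc6). The list as a whole was not higher in every library, with medians of -0.20, 0.14 and 1.81. Of 18 B cell transcription factors 5 were higher (Bcl11a, Ebf1, Foxo1, Lef1 and Sox4) with Ikzf1 lower. Of 13 immediate early genes 5 were higher (Btg2, Ier2, Jun, Jund and Klf6), while of 10 heat shock genes 5 were lower. Over all 7719 genes measured this way, 6.53% were higher and 1.36% lower. With libraries scaled by the median of ratios the split was 182 higher and 335 lower. After thinning to 2000 UMIs it was 28 and 56. The 12 endothelial markers also summed higher in the Dntt cells, at 380.1, 348 and 354 CPM against 132, 206 and 89.9 CPM (up to 1.99% of the endothelial level), though none was called. The 8 plasma cell markers summed to 1087, 1061 and 2337 CPM in the Dntt cells against 452, 476 and 342 CPM, with Mzb1 and Xbp1 called higher and Prdm1 at 0 throughout. The 8 markers of plasmacytoid dendritic cells summed to 857, 530.4 and 1133 CPM against 256.5, 334 and 216 CPM, with Tcf4 called higher and Siglech at 0 throughout. The part of these markers in the contrast was not tested. Without WT only 84 genes were higher, without FLOX 176 were lower, and without VC 257 were lower.

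Among dividing cells of WT and FLOX alone, 48 single-gene median folds stayed within 1.5-fold of the median over all 3 libraries. A further 31 moved and 1 (Mcl1) changed direction. In dividing WT cells Vpreb1 was at 1804 CPM in Dntt cells against 531 CPM in Myl4 cells, and in dividing FLOX cells at 1269 against 574 CPM. Cd24a was at 359.6 against 1554 CPM in dividing WT cells and at 476 against 1297 CPM in FLOX. Not all genes called higher in the Dntt cells were so among dividing FLOX cells. There Vpreb3 was at 1332 against 1706 CPM, Xrcc6 at 126.9 against 179 CPM, Sox4 at 381 against 395 CPM, Mcl1 at 31.7 against 223.5 CPM and Foxo1 at 31.7 against 44.7 CPM, while Cd79a was at 919.8 against 864 CPM. The Dntt values of Mcl1 and Foxo1 rest on 1 UMI each. VC had no dividing Dntt cell.

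**Figure D3:**
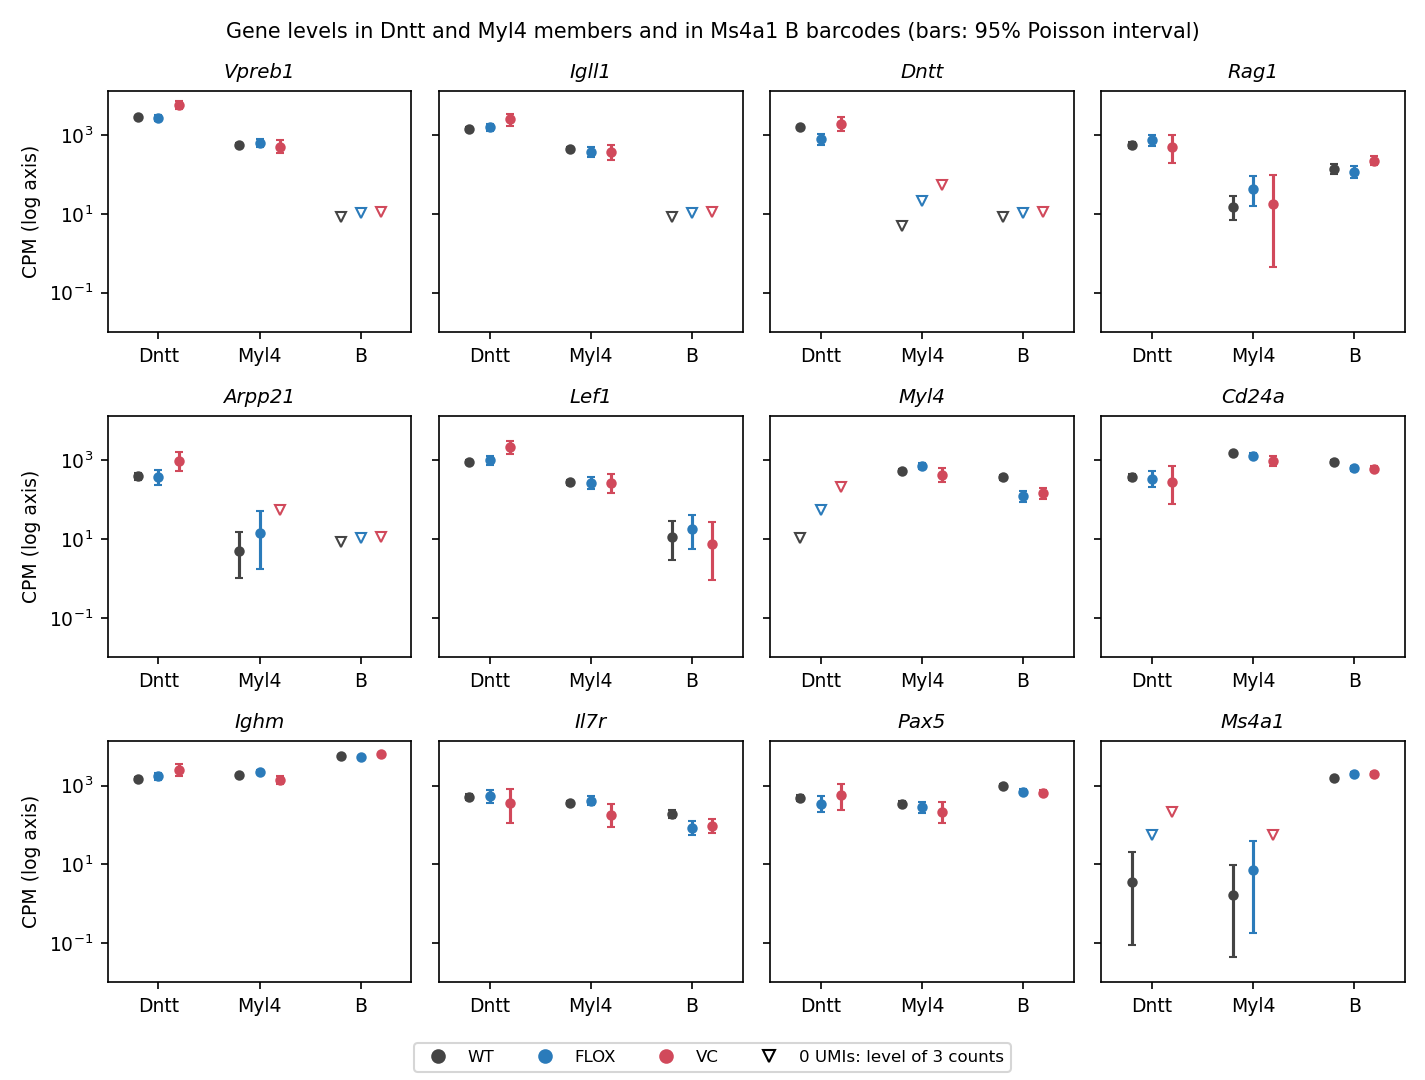
Levels of 12 genes in the Dntt cells, the Myl4 cells and the B barcodes (B) of each library, in CPM on a log axis with 95% Poisson intervals, where open triangles mark the level of 3 counts for genes with 0 UMIs. Vpreb1, Igll1, Rag1 and Arpp21 were highest in the Dntt cells of all 3 libraries, and Cd24a in the Myl4 cells. Vpreb1, Igll1 and Ms4a1 were used to choose the cells and are description only.

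Most WT and FLOX precursors held transcripts of dividing cells. A cell was counted as dividing if it had at least 2 UMIs of Mki67 and Top2a, both made in cycling cells, and 43 of 67 WT cells did so (64.2%), 15 of 25 FLOX cells (60%) and 2 of 5 VC cells (40%). The VC interval, 5.27% to 85.3%, held the values of both controls. At 2000 UMIs, 60.6%, 60% and 20% of the precursors kept at least 1 UMI of either gene. The same share was 5.26%, 6.76% and 3.17% in B barcodes and 3.08%, 2.80% and 1.86% in endothelial barcodes. At 4000 UMIs, which left out 8, 8 and 1 shallower cells and kept 4 VC cells, the precursors' shares were 72.9%, 76.5% and 75.0%, so the low VC value at 2000 UMIs did not hold at that depth. The Myl4 cells were dividing in 21 of 24, 10 of 12 and 2 of 2 cases, the Dntt cells in 13 of 32, 3 of 9 and 0 of 3.

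Dividing cells were set against cells with no UMI of Mki67 or Top2a, 22 in WT, 10 in FLOX and 2 in VC. Across all genes 137 of 3202 (4.28%) were at least 1.5-fold higher in the dividing cells in all 3 libraries and 444 (13.9%) were lower. The split turned to 568 higher and 132 lower when libraries were scaled by the median of ratios, and was 75 and 36 after thinning to 2000 UMIs. Without VC it was 567 and 685, and without WT 119 were lower. The genes highest in dividing cells made histones (Hist1h1b, Hist1h1e, H2afz), chromatin proteins (Hmgb1, Hmgb2, Nap1l1), microtubules and their regulators (Tubb5, Stmn1) and nuclear transport factors (Ran, Ranbp1), beside Pa2g4 and Ptges3. Of 30 cell cycle genes only Mki67 and Top2a, which made the split, were called higher and none lower. The list's median log2 folds were 2.97, 1.88 and 0.37, the last over only 5 genes with a ratio in VC. Hist1h1b, a linker histone, was at 3638 CPM in dividing and 47.0 in other WT cells, and at 6870 and 26.7 CPM in FLOX. Rag1 was at 75.7 against 903 CPM in WT and at 21.2 against 1361 CPM in FLOX, lower in dividing cells. With Rag1 stood Arpp21, Maf, Tmem91, Gimap6 and Sgk1, which were also higher in the Dntt cells, and Eif2ak3, Selenom, Acss1, Arl5c, Pik3ip1 and Selenop. Of 13 pre-B receptor genes 9 were lower in dividing cells and none higher, with median log2 folds of -1.40, -1.30 and -1.96. Vpreb1, Igll1 and Cd79a, used by the rule, are among the 9 and are description only. The median dividing cell had 17321, 9105 and 27806 UMIs and the median non-dividing cell 4824, 3480 and 3358. Over all 7691 genes measured, 1.78% were higher and 9.09% lower, with medians of -0.28, -0.52 and -1.47.

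The shares of precursors with a transcript give the stages in another way, each cell thinned to 2000 UMIs. Dntt was found in 50%, 32.0% and 60% of precursors, against no B barcode and at most 0.0993% of endothelial barcodes. Rag1 or Rag2 was found in 43.9%, 40% and 40%, against 18.4%, 12.2% and 22.2% of B barcodes. Il7r was found in 62.1%, 68.0% and 20%, against 28.9%, 12.2% and 9.52% of B barcodes, and the VC value is 1 of 5 cells. Igkc, the kappa light chain, was found in 40.9%, 84.0% and 60% of precursors. The share in endothelial barcodes, which should lack Igkc, was 14.6%, 63.2% and 30.2%, highest in FLOX as in the precursors, so the precursors' order is not read as expression.

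Against the B barcodes, 566 of 3340 genes (16.9%) were at least 1.5-fold higher in the precursors in all 3 libraries and 444 (13.3%) were lower. Without the limits on the B barcodes the counts were 1238 and 178. The rule chose the cells on this contrast, so the counts describe them. Vpreb1, Igll1, Vpreb2 and Dntt had no UMI in B barcodes. Lef1 was at 467, 518 and 659.7 CPM in the precursors against 11.0, 17.6 and 7.57 CPM. Lig1, a DNA ligase of replication, and Dut, which clears dUTP, were among the 12 highest by smallest fold, with Nrgn, Lockd, Ifitm2, Cdk1 and Tyms. Lig1 was at 303 against 8.29 CPM in WT and 275 against 10.6 CPM in FLOX. Of 30 cell cycle genes 28 were higher and none lower, with median log2 folds of 2.70, 4.58 and 3.66.

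Listed genes of later B cells were lower in the precursors. Cd74, the class II invariant chain, was at 40.1, 22.1 and 28.7 CPM in the precursors against 3231, 5837 and 6294 CPM. Of 22 genes of immature and mature B cells 19 were lower, of 10 class II genes 9, of 4 light chain constant genes all 4 and of 14 immediate early genes 12. Pax5 was detected in most precursors but stood lower, at 404, 345 and 287 CPM against 978, 705 and 654 CPM, a direction that reversed (median log2 fold 1.63) against B barcodes taken without the limits on Jchain, Cdh5 and Cxcl12. Among the 12 with the largest smallest fold were also Ms4a1, Ly6d, Egr1, H2-Aa, H2-Eb1, Rnase6 and Slfn2, with Igkc, Iglc1, Iglc2 and Iglc3. In the FLOX B barcodes 92.4% of the Igkc UMIs came from 1 cell, so no fold is read there. Of 11 homing genes 4 were lower (Ccr7, Cxcr4, Cxcr5 and S1pr1). Cxcr4, the receptor for Cxcl12, was at 90.4, 151 and 143 CPM in the precursors against 191, 243 and 374.5 CPM. In the list for interleukin 7 signals, Il7r and Ccnd3, a cyclin of pre-B cell division, were higher, and Bcl2, Il2rg and Mcl1 lower, of 13. Over all 7907 genes with a mean of 10 CPM or more, 13.3% were higher and 8.38% lower. Neutrophil markers summed to 235, 137 and 100.4 CPM in the precursors against 696, 285.5 and 272 CPM in B barcodes, and their part in the contrast was not tested.

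**Figure D4:**
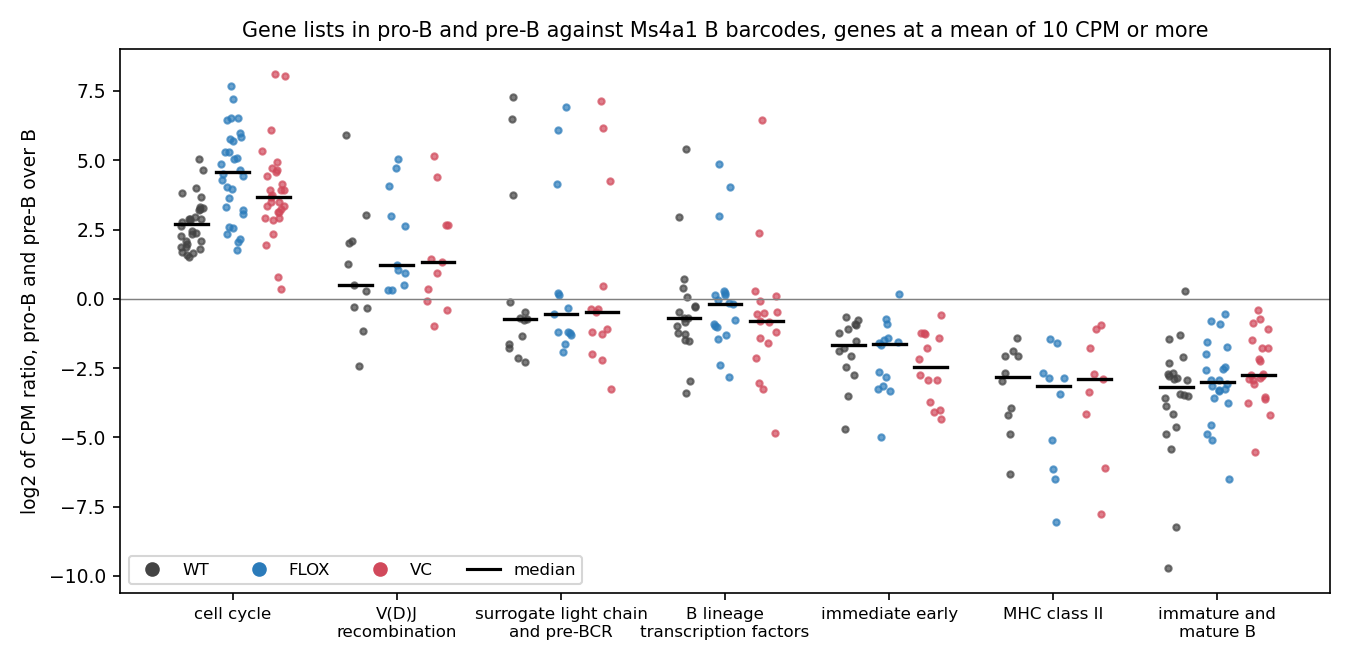
Log2 ratio of CPM, precursors over B barcodes, for the genes of 7 lists with a mean of 10 CPM or more, 1 point per gene and library, with black bars for medians. Cell cycle genes had medians of 2.70 to 4.58, and genes of immature and mature B cells of -3.19 to -2.76.

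Between genotypes, 341 of 3289 genes (10.4%) were at least 1.5-fold higher in the VC precursors than in WT and FLOX, by more than these differed, and 462 (14.0%) were lower. WT stood apart in the same way in 75 genes higher (2.28%) and 79 lower (2.40%), FLOX in 93 (2.83%) and 176 (5.35%). The VC counts come from 5 cells, and only 24 (0.730%) and 17 genes (0.517%) had a VC counting interval apart from both others. With the median of ratios 219 were higher, and with the limits on Jchain, Cdh5 and Cxcl12 left out, which made 8 VC cells, 148 were higher. Among the 24 were Bst2, Gbp7, Commd6, Nip7, Mogs, Samd1, Fbxl12, Fam136a, Ndufaf4 and Tma16, which were all among the 12 highest by smallest fold with Armc1 and Aatf. Commd6 was at 41.9, 31.0 and 201 CPM, the last from 4 of 5 cells. Nip7, which acts in ribosome assembly, was at 43.8, 26.6 and 201 CPM, from 2 cells, and Ndufaf4 at 55.0, 26.6 and 172 CPM, from 1 cell.

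Lower in VC, by smallest fold, were Ly6d, Hist1h3i, Cerk, Kcnq1ot1, Tmem245, Tmem263, Rprd2, Zmynd11, Itpkb, M6pr, Lsp1 and Cop1. Of these only Ly6d, Hist1h3i and Kcnq1ot1 had a VC counting interval below both others. All but Kcnq1ot1, with 6 UMIs, rest on 1 VC UMI. Kcnq1ot1, a nuclear non-coding RNA, was at 759, 562 and 86.0 CPM. Ly6d, a surface marker of early B lineage commitment, was at 133, 173 and 14.3 CPM, the last from 1 UMI. Il7r was at 397, 456 and 215 CPM, and its VC interval (120.4 to 355) lay below those of WT (360.2 to 437) and FLOX (372 to 553). The VC cells held 3, 7, 5, 0 and 0 Il7r UMIs from the deepest to the shallowest, where WT cells ran from 0 to 22 and FLOX cells from 0 to 12, so single cells overlapped. In the interleukin 7 list Jak1, Mcl1 and Stat5b were also lower and Pim1 higher, of 11. Of 30 cell cycle genes 9 were lower in VC, of which Mki67 was at 1716, 1851 and 989.5 CPM. None of the 13 pre-B receptor genes was higher and 1 (Lyn) lower. Of 18 B cell transcription factors 4 were lower (Foxo1, Ikzf3, Pou2af1 and Runx1), and Pax5 and Ebf1 were not called. Over all 7574 genes measured, 15.0% were higher and 12.8% lower in VC.

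Interferon response genes were the list with the largest share of higher genes in VC. Interferons are cytokines that induce antiviral GTPases and antigen processing genes in many cell types, and 12 of 16 measured genes were higher in the VC precursors and none lower. They were Irf1, Irf9, Gbp7, Igtp, Iigp1, Irgm1, Irgm2, Ifi47, Zbp1, Bst2, Tap1 and Ifi27. The median log2 fold was 2.01 over WT and 1.70 over FLOX, against 0.05 and 0.11 over all genes and 0.33 for FLOX over WT in the list, and is no support, since genes could pass through VC alone. In VC 1 UMI stands for 14.3 CPM, and Igtp, Iigp1, Irgm2 and Zbp1 passed the floor on levels only with VC in the mean. With genes taken by the mean of WT and FLOX instead, 8 of 14 were higher, 2 (Ifit2 and Gbp5) had no UMI in VC, and 11.5% of all genes were higher. The medians over the 12 with a UMI in VC were then 1.36 over WT and 1.13 over FLOX, against 0.02 and 0.11 over all genes.

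Iigp1, an interferon-induced GTPase, had 2 UMIs in 67 WT cells, 1 in 25 FLOX cells and 19 in 5 VC cells, of which 12, 6 and 1 came from 3 cells. Its level was 1.86, 4.43 and 272.5 CPM. Gbp7, a guanylate-binding protein, was at 30.8, 53.1 and 201 CPM and Bst2 (tetherin) at 42.9, 35.4 and 201 CPM. The VC intervals of Iigp1, Gbp7 and Bst2 lay above both controls. B2m, the class I light chain, was at 723, 868 and 1219 CPM and was not past 1.5-fold over FLOX. Ly6e was at 845, 824 and 717 CPM and was not higher.

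Summed over 24 listed genes (without Cxcl9, Cxcl10 and B2m), the WT level was 1648 CPM (1572 to 1726). FLOX stood at 1807 CPM (1636 to 1991) and VC at 2868 CPM (2484 to 3294). Per cell and 10000 UMIs, WT cells ran from 4.01 to 50.3 (median 19.2) and FLOX cells from 4.53 to 51.1 (median 19.7). The VC cells had 19.1, 11.4, 81.0, 44.4 and 105, from the deepest to the shallowest, so 2 of 5 lay above every control cell and 3 within their range. The 2 lowest VC values were those of the Myl4 cells, and WT and FLOX Myl4 cells ran from 4.01 to 25.1 and from 4.53 to 30.8. The 3 VC Dntt cells had 44.4, 81.0 and 105, where WT Dntt cells ran from 5.96 to 50.3 (median 27.9) and FLOX Dntt cells from 11.9 to 44.0 (median 22.3). In all 3 libraries the summed level was higher in the Dntt cells, at 2668, 2305 and 7506 CPM against 1109, 1358 and 1690 CPM.

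The same genes were read in the other cells of each library. In B barcodes 10 of 18 measured genes were higher in VC and none lower (all genes 6.84%). Of these, Isg15 and Iigp1 passed the floor on levels only with VC in the mean. With genes taken by the mean of WT and FLOX instead, 8 of 16 were higher, against 5.28% of all genes. The sum in B barcodes was 2415, 2897 and 3556 CPM. In endothelial barcodes the sum was 2809, 2990 and 8909 CPM. Of genes that endothelial cells make, Cxcl9 and Cxcl10 were at 234, 216.5 and 4011 CPM in endothelial barcodes and had 1, 0 and 0 UMIs in the precursors. The summed endothelial markers were at 226.5, 230.3 and 143 CPM in the precursors. Iigp1 stood at 12.2% of its VC endothelial level and the endothelial markers at 0.808% of theirs, and the part of endothelial RNA in the precursors' interferon levels was not tested. Of 12 class I genes 3 were higher in VC (Nlrc5, Tap2 and Tap1, which is also in the interferon list), where 15.0% of all genes were, so little is read from them, and of 7 class II genes none was higher and 1 lower (H2-Ob).

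**Figure D5:**
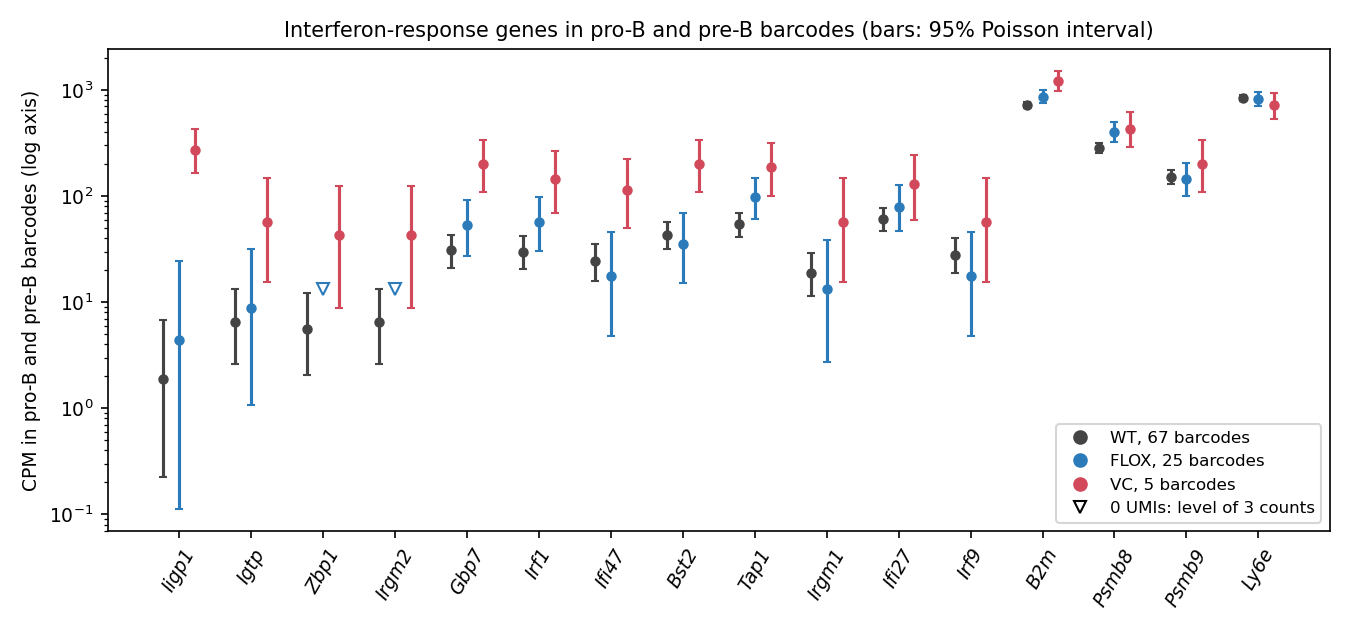
Levels of the 16 measured interferon response genes in the precursors of each library, in CPM on a log axis with 95% Poisson intervals, where open triangles mark the level of 3 counts for genes with 0 UMIs. The VC level was highest in the 12 called genes, by fold most of all in Iigp1 (272.5 CPM), and not in Ly6e (717 CPM). Igtp, Iigp1, Irgm2 and Zbp1 passed the floor on levels only with VC in the mean. B2m, Psmb8 and Psmb9 were also highest in VC but were not called.

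Of 11 genes listed for the VEGF family, its ligands and receptors with Ccbe1, 3 could be read in the precursors, and none was called in VC. The ligands Vegfa and Vegfb were higher in the precursors than in B barcodes, though little is read from VC. There Vegfa rests on 1 UMI in each set, and Vegfb on 3 UMIs against 1. Vegfb was at 32.6, 39.9 and 43.0 CPM against 11.0, 24.7 and 3.78 CPM, and Vegfa at 18.6, 31.0 and 14.3 CPM against 0, 10.6 and 3.78 CPM, on 1 to 7 UMIs in each B barcode set with any. Flt4, the receptor for Vegfc, had 2, 3 and 1 UMIs in the precursors against 659.5, 657 and 758 CPM in endothelial barcodes.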

How the data were processed

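The deposited files hold raw UMI counts per gene and barcode, whole numbers that the authors had not normalised, in 1 filtered matrix of 31053 genes per library. Per the submitters' processing notes, the tools were Cell Ranger 2.1.1 and Seurat 3.1 on mm10. The file headers name version 3.1.0, and which one made the counts is uncertain. Cells kept had 500 or more genes and no more than 10% of mitochondrial UMIs, 4318 of 5718 WT, 5734 of 6529 FLOX and 2738 of 3377 VC barcodes. UMIs were summed per library and set of cells and scaled to CPM. A gene was called at 1.5-fold in the same direction in all 3 libraries, or in VC against both others, with at least 50 CPM on average and 50 UMIs, and zeros were set to 3 UMIs. Doublets were scored with Scrublet (scanpy 1.11.5, expected rate 6%) and not removed. Named genes are those of the B lineage lists and the 12 called genes per direction with the largest smallest fold, leaving out mitochondrial, ribosomal protein, immunoglobulin variable and sex-linked genes. The members and lists were chosen with earlier results of these data known. In the interferon list 1 gene is not reported here and was left out of its counts and sums. Python 3.11.15, numpy 2.4.6, scipy 1.17.1 and pandas 2.3.3 were used. Settings changed were the cell filter, the limits, the threshold of the rule, the doublet scores, thinning, the scaling, the fold, the floor on levels and the libraries.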

Additional observations from a re-analysis of the deposited data

Results flagged for a closer look

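In 2 genes a fold pointed in opposite directions in 2 libraries, each by more than its size of call, and the difference was not tested. Rag1 was higher in the precursors than in the B barcodes in FLOX (log2 fold 1.02) and lower in VC (-0.98), where the VC precursors had 8 Rag1 UMIs and the VC B barcodes 60. Runx1, a transcription factor of blood cell development, was higher in dividing than in non-dividing precursors in FLOX (log2 fold 0.94) and lower in WT (-1.08).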

How the results depend on the processing

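No paired analysis was possible because each genotype has 1 library. Of 170 values for whole comparisons under other settings 135 stayed within their counting interval or within 1.5 times the count. Of 3131 values for single genes 2554 stayed within 1.5-fold of the main fold, or within the interval of a share, with 9 reversed. Without the limits on the B barcodes, the precursors were 10.8% of both sets in FLOX and 1238 genes were higher and 178 lower. Median log2 folds over B barcodes then reversed to 1.22 for Bcl11a, 0.82 for Cd79a, 0.16 for Cd79b, 0.078 for Foxo1, 0.24 for Irf8, 1.63 for Pax5, 0.95 for Spi1 and 1.21 for Syk, and the cause was not tested. In dividing WT and FLOX cells Mcl1 reversed to -0.88 for Dntt over Myl4 cells. At 2-fold, 321 genes were higher and 261 lower over B barcodes, 70 and 275 in dividing cells, 154 and 23 in Dntt over Myl4 cells, and 104 and 214 in VC. From 20 CPM, 871 were higher over B barcodes and 746 lower in VC. With the median of ratios the counts were 568 and 132 for dividing cells, 182 and 335 for Dntt over Myl4 cells and 219 higher in VC, and this scaling moved VC over WT by -0.11 and VC over FLOX by -0.15 on the log2 scale. Thinned to 2000 UMIs, the counts were 75 and 36 for dividing cells and 28 and 56 for Dntt over Myl4 cells, where fewer UMIs are read. At 4000 UMIs, Mki67 or Top2a was found in 72.9% of WT and 75.0% of VC precursors. Chosen after the data were seen, members without limits gave 214 genes higher in dividing cells, 177 lower in Dntt cells and 148 higher in VC, and counting intervals apart left 24 and 17 in VC. Leaving out each library in turn gave 542 to 686 genes higher and 493 to 628 lower over B barcodes, 153 to 567 and 119 to 685 in dividing cells, and 84 to 447 and 126 to 257 in Dntt over Myl4 cells. The 5 VC cells limit every VC value, since 1 UMI there stands for 14.3 CPM.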
